A study of Mus musculus with 16 samples.

Results

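The suppressor of cytokine signalling (SOCS) genes *Socs1*, *Socs2*, *Socs3* and *Cish* were followed together with 6 genes of the pathway that they restrain, namely the ligand *Lif*, the receptor genes *Il6st* and *Osmr*, the kinase genes *Jak1* and *Jak2*, and the transcription factor gene *Stat3*. These 10 genes were found by symbol, each in a single row, among 47729 genes with a value. All 10 passed the expression minimum of 0.5 CPM (reads on the gene, scaled to the same library total for each library) in every replicate of some group, as did 16994 genes in all.

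Cytokines such as LIF, oncostatin M and interleukin 6 bind receptor chains that pair with gp130, the product of *Il6st*. Janus kinases held on these receptors then phosphorylate STAT3, which enters the nucleus and switches on target genes that include *Socs3*. SOCS proteins close the loop: SOCS1 and SOCS3 block the kinases, CIS (from *Cish*) and SOCS2 act mainly on growth hormone and STAT5 signalling, and all of them carry a SOCS box that recruits a ubiquitin ligase. In glia and many epithelia this pathway is known for its part in the response to injury.

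RNA was sequenced from postnatal day 4 mouse cochleae of 2 genotypes. Control mice were *GLAST* CreERT/+; *Rpl22* HA/+, and DTR mice carried *Lgr5* DTR/+ in addition to the same alleles. Both are described in the study's text as given diphtheria toxin and tamoxifen at postnatal day 1, whereas by the labels the control mice were untreated. In DTR mice the toxin ablates cells that express *Lgr5*, which are supporting cells, and in both genotypes tamoxifen starts Cre in cells with an active *Slc1a3* (GLAST) promoter, where the ribosomal protein RPL22 then carries an HA tag. Each replicate was a pool of 8 cochleae from 4 mice, from which the spiral ganglion, lateral wall and Reissner's membrane had been removed. A small share of each homogenate was kept as input (RNA of all cells) and the rest was immunoprecipitated (IP) with an antibody to HA, so that each of the 8 pools gave an input and an IP library. Each genotype thus had 4 input and 4 IP libraries, named here by replicates 1 to 4. Counted reads ranged from 35517482 to 41966310 in the input and from 30586938 to 34362992 in the IP of control mice. For DTR mice they ranged from 32764633 to 39158473 in the input and from 28089836 to 31119045 in the IP. In these libraries 3 reads corresponded to 0.0715 to 0.107 CPM, a limit that covers counting error only.

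The labelled cells were checked by their markers. *Slc1a3* itself, whose promoter drives Cre, stood at 274, 274, 275 and 303 CPM in control input and at 244, 219, 218 and 264 CPM in control IP, with a log2 fold change (LFC) of -0.20 (SE 0.09, adjusted p = 0.1, limma). Of 8 markers of GLAST-Cre+ cells and the greater epithelial ridge, 2 (*Fabp7* and *Sox2*) were higher and 2 (*Otoa* and *Tecta*) lower in control IP than in control input. Among all tested genes 19.3% were higher and 20.7% lower there. In DTR IP none of the 8 was higher than in DTR input and 3 were lower (*Fgf10*, *Otoa* and *Slc1a3* itself, with an LFC of -0.27 and an adjusted p of 0.030). Among all tested genes 18.6% were higher and 20.5% lower in that comparison. The control counts lay near the shares of all tested genes, and no rise of these markers as a group was seen in either genotype. All 9 macrophage markers, all 6 endothelial markers, all 6 hair cell markers and 5 of 6 Schwann cell markers were lower in control IP than in control input. *Lgr5* fell from 63.6, 59.0, 66.1 and 64.4 CPM in control input to 17.9, 11.2, 15.1 and 19.6 CPM in DTR input, and fell in the IP as well (LFC -1.93, adjusted p = 3.5e-08). An IP against input ratio reflects both the cell type and how fully an mRNA sits on ribosomes, and these cannot be told apart here. In these bulk samples fewer cells of a type and less RNA per cell cannot be told apart either.

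STAT proteins bind a palindrome of the form TTCNNNGAA, and interferon regulatory factors bind repeats of GAAA, so the stretch before the transcription start was searched for TTCNNNGAA (its own reverse complement) and for GAAANNGAA on both strands. The windows were RefSeq's (GRCm38.p6), from 250 bases before to 50 after each start, and 9 of the 10 genes had one (*Socs2* did not). TTCNNNGAA occurred in 2 of these 9 and in 8.3% of all 32851 windows, and GAAANNGAA in 1 of 9 and in 8.56% of all windows. The matches shown are those of the SOCS genes, which lie before the start of *Socs3* and *Socs1* and just after that of *Cish*, and those before a pair of targets that rose after damage, *Icam1* in the IP and *Irf1* in input. Of the 9 listed STAT3 targets that rose after damage in IP or input, 8 had a window, and *Icam1* was the only 1 of them with a TTCNNNGAA match. Of all 24 listed STAT3 targets, 21 had a window and 4 a match (*Fgl2*, *Gfap*, *Icam1* and *Steap4*). Outside that list, *Gadd45g* and *Cxcl10* also rose in input, and their windows held no TTCNNNGAA match. Positions are counted from the transcription start, -1 being the base before it, and the match is in capitals. The *Socs3* stretch (chr11:117969452-117969616, minus strand, -250 to -86) lies between exons of a longer GENCODE transcript of *Socs3*, and its match begins at -154. In *Socs1* (chr16:10785537-10785786, minus strand, -250 to -1) a pair of overlapping GAAANNGAA matches begins at -83 and at -77. *Cish* (chr9:107296659-107296678, plus strand) has a pair of TTCNNNGAA matches in the first 20 bases of the transcript. *Icam1* (chr9:21015888-21015916, plus strand) and *Irf1* (chr11:53769914-53769942, plus strand) hold 1 match each, at -42 and at -90. Another window of *Irf1*, for a different start (chr11:53770223-53770522, plus strand), held no TTCNNNGAA match.
Socs3: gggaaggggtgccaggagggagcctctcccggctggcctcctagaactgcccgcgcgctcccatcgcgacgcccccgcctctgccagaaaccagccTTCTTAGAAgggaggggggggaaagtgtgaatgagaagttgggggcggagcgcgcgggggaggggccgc
Socs1: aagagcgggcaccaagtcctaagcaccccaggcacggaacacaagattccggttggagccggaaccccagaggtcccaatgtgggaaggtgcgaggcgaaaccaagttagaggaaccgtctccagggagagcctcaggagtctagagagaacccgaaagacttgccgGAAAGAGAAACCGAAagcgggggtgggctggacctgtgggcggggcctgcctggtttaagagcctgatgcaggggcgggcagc
Cish: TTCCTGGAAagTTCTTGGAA
Icam1: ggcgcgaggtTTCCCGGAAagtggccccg
Irf1: acagcctgatTTCCCCGAAatgatgaggc
A match says only that these letters are present in the window, and binding was not measured.

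Which genes of the pathway stood apart in the ribosomes of GLAST-Cre+ cells was asked first in undamaged cochleae. All 4 SOCS genes and *Lif* were higher in control IP than in control input, and *Il6st*, *Jak1*, *Jak2* and *Stat3* were lower. The inhibitors and the ligand thus lay on the opposite side from the signal-transducing receptor, the kinases and the transcription factor. With an adjusted p under 0.05, 9 of the 10 genes were called, beside 39.9% of all tested genes (19.3% higher and 20.7% lower). The thresholds of the study, which ask for an LFC of at least 2, a separation of groups and expression above the median, were passed by *Socs1* and *Socs3*, beside 0.535% of all tested genes. Separation is the lowest value of the higher group over the highest value of the lower group, and had to exceed 1.5. In every comparison here these thresholds were applied to the LFC and adjusted p of limma. The study tested with DESeq2, so its own lists need not hold the same genes or shares.

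*Socs1* (chr16:10782240-10785536, minus strand), whose product blocks JAK1, JAK2 and TYK2, had the largest difference of the 10. It stood at 12, 13, 14.8 and 14.9 CPM in control input and at 132, 123, 138 and 141 CPM in control IP. Every IP library lay far above every input library. The IP was 9.50-fold higher (LFC 3.25, SE 0.23, adjusted p = 4.2e-09, limma with Benjamini-Hochberg adjustment).

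*Socs3* (chr11:117966079-117970047, minus strand), the inhibitor that binds gp130 and is itself a STAT3 target, stood at 12.3, 13.4, 11.8 and 14.9 CPM in control input and at 66.7, 65.4, 54.2 and 51.3 CPM in control IP. The groups did not overlap, and the 4 input libraries lay close together. The difference was 4.42-fold (LFC 2.14, SE 0.12, adjusted p = 2.0e-10). After a correction for gene length and GC content, an alternative chosen after the data were seen, the LFC was 3.09 for *Socs1* and 1.96 for *Socs3*.

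*Socs2* (chr10:95385362-95417180, minus strand), a brake on growth hormone signalling, was already abundant in input. It stood at 194, 223, 217 and 258 CPM in control input and at 425, 400, 438 and 449 CPM in control IP, with no overlap between the groups (LFC 1.00, SE 0.13, adjusted p = 8.8e-06). *Cish* (chr9:107296026-107302784, plus strand), the STAT5-induced family member, stood at 8.15, 11.7, 8.56 and 7.71 CPM in input and at 14.1, 15.5, 13.1 and 13.0 CPM in IP. Its groups did not overlap either, and its difference was the smallest of the 4 (LFC 0.65, SE 0.14, adjusted p = 0.0011). *Cish* overlaps a pair of genes on the opposite strand, and the strand setting of the counting is not stated, so that reads of these genes cannot be told apart from its own.

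*Lif* (chr11:4257557-4272514, plus strand), which encodes leukemia inhibitory factor, was the rarest of the 10 in control input. It stood at 0.357, 0.535, 0.363 and 0.931 CPM there, that is 15 to 36 reads per library. In control IP it stood at 2.57, 3.06, 2.06 and 1.73 CPM, all above the input libraries (LFC 1.49, SE 0.23, adjusted p = 4.1e-05). At such levels the pseudocount of 0.5 shrinks the change, and over the alternatives tried the LFC reached 2.16.

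**Figure D1:**
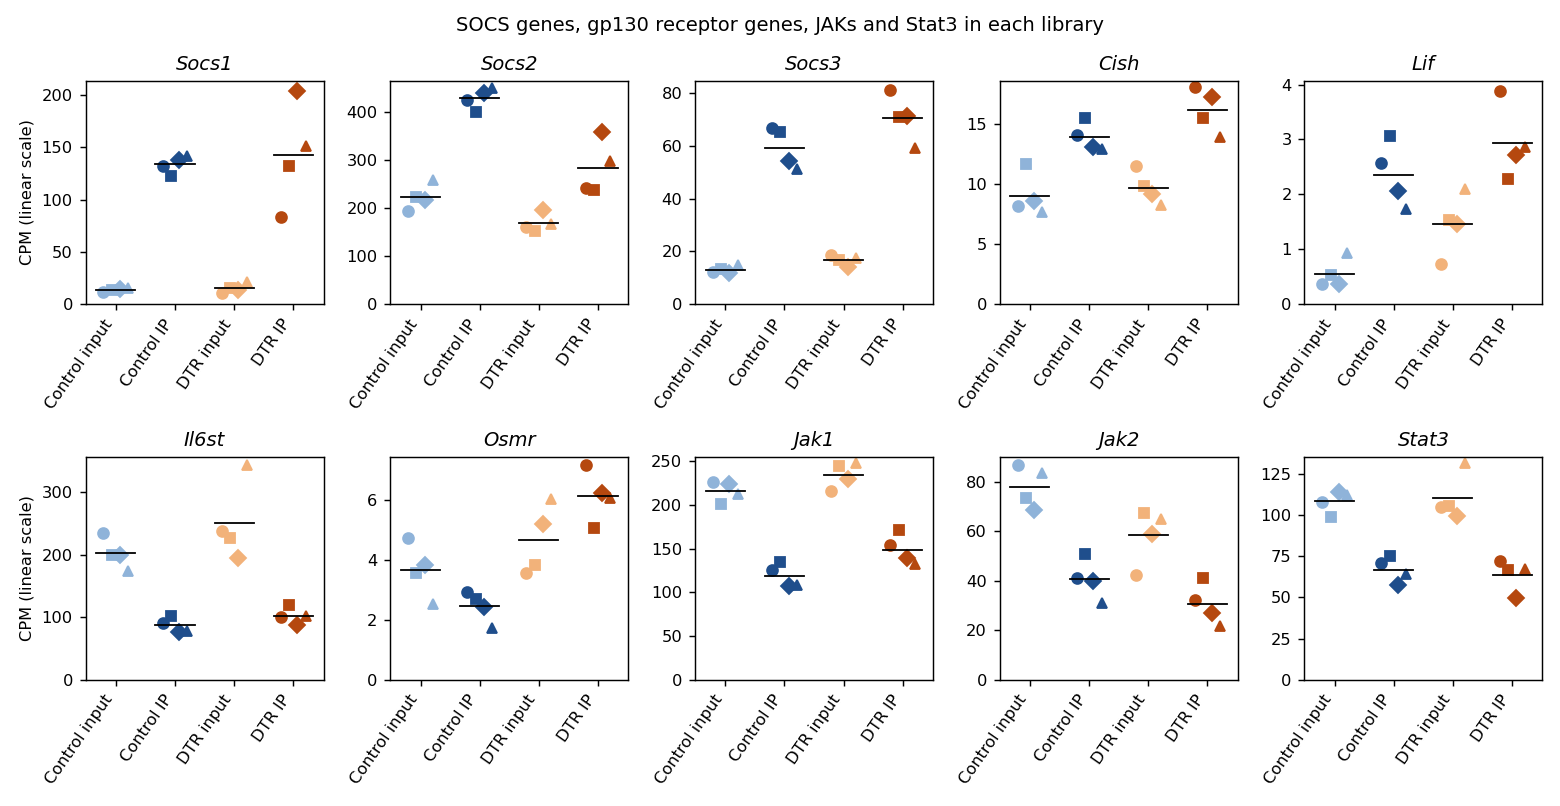
CPM (linear axis from 0) of the 10 genes in each of the 16 libraries, by group; circles, squares, diamonds and triangles are replicates 1 to 4 and the black bar is the mean of 4. The 4 SOCS genes and *Lif* lie higher in IP than in input in both genotypes, whereas *Il6st*, *Jak1*, *Jak2* and *Stat3* lie lower.

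The receptor and kinase genes went the other way. *Il6st* (chr13:112464070-112510086, plus strand) stood at 235, 200, 201 and 174 CPM in control input and at 91.1, 103, 75.8 and 78.7 CPM in control IP. Every IP library lay below every input library (LFC -1.16, SE 0.15, adjusted p = 5.8e-06). *Osmr* (chr15:6813577-6874969, minus strand), the oncostatin M receptor chain, stood at 4.74, 3.58, 3.82 and 2.54 CPM in input and at 2.93, 2.71, 2.44 and 1.73 CPM in IP. Its groups overlapped and the difference did not pass (LFC -0.37, 95% interval -0.81 to 0.06, adjusted p = 0.17).

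*Jak1* (chr4:101152367-101265282, minus strand), the kinase that gp130 signalling depends on most, stood at 226, 201, 224 and 212 CPM in control input and at 126, 135, 107 and 108 CPM in control IP (LFC -0.81, SE 0.10, adjusted p = 2.6e-06). *Jak2* (chr19:29251828-29313080, plus strand), which serves growth hormone and erythropoietin receptors, stood at 86.9, 73.3, 68.6 and 83.4 CPM in input and at 41.1, 50.8, 40.1 and 31.1 CPM in IP (LFC -0.93, SE 0.17, adjusted p = 0.00028). *Stat3* (chr11:100885098-100939540, minus strand) stood at 108, 99.0, 114 and 112 CPM in input and at 70.8, 75.0, 57.3 and 63.9 CPM in IP (LFC -0.68, SE 0.12, adjusted p = 0.00018). In none of these 3 genes did the groups overlap, and *Stat3* and *Jak1* overlap other genes on the opposite strand.

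The order of levels within the IP differed from that in input. On the scale of CPM per kilobase of exon (GENCODE M21 lengths; the study counted reads on coding regions, so long untranslated regions lower this level), *Jak1* was highest in control input at 29.9 ± 1.63 (SD, n = 4), followed by *Socs2* at 23.4 ± 2.77, *Il6st* at 18.2 ± 2.27, *Jak2* at 15.5 ± 1.70 and *Stat3* at 11.4 ± 0.711. The ranges of *Socs2* and *Il6st* overlapped, as did those of *Il6st* and *Jak2*. *Socs1* at 4.70 ± 0.499 and *Socs3* at 4.53 ± 0.467 came next with overlapping ranges, above *Cish* at 1.41 ± 0.281, *Osmr* at 0.303 ± 0.0749 and *Lif* at 0.126 ± 0.0620. In control IP *Socs1* was highest at 46.0 ± 2.77, and its range overlapped that of *Socs2* at 44.9 ± 2.21. *Socs3* at 20.5 ± 2.70 and *Jak1* at 16.5 ± 1.87 followed, and the ranges of these neighbours overlapped too. *Jak2* at 8.10 ± 1.60, *Il6st* at 7.84 ± 1.11 and *Stat3* at 7.01 ± 0.817 could not be ordered beyond their spread, and *Cish* at 2.17 ± 0.184, *Lif* at 0.541 ± 0.134 and *Osmr* at 0.202 ± 0.0429 closed the list.

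**Figure D2:**
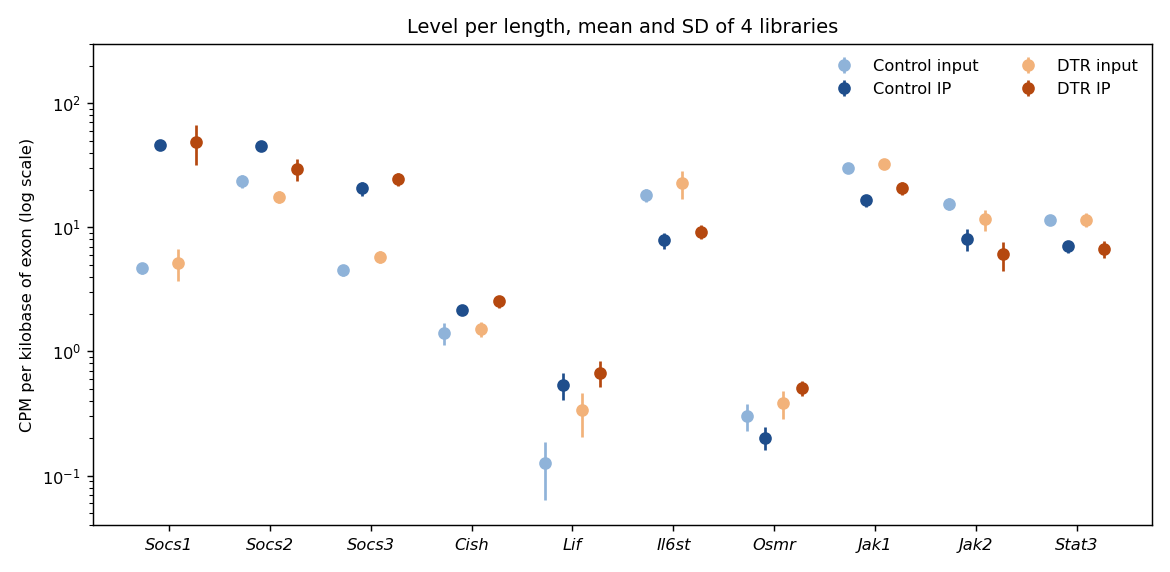
Level per length (CPM per kilobase of exon, log axis) of the 10 genes in the 4 groups; points are means and bars SD of 4 libraries. *Socs1* moved from 4.70 in control input to 46.0 in control IP, past *Jak1*, which moved from 29.9 to 16.5.

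In damaged cochleae the same comparison was made between DTR IP and DTR input. The 4 SOCS genes and *Lif* were again higher in IP and *Il6st*, *Jak1*, *Jak2* and *Stat3* lower, so that 9 of 10 were called, beside 39.2% of all tested genes (18.6% higher and 20.5% lower), and the thresholds of the study were again passed by *Socs1* and *Socs3*, beside 0.506% of all tested genes. *Socs1* stood at 10.6, 15.1, 13.7 and 20.9 CPM in DTR input and at 83.6, 132, 204 and 151 CPM in DTR IP. The IP libraries were spread widely, with replicate 1 lowest and replicate 3 highest, yet all lay above the input (LFC 3.19, SE 0.23, adjusted p = 6.1e-09). *Socs3* stood at 18.6, 16.7, 14.1 and 17.3 CPM in input and at 81.2, 71.2, 71.5 and 59.2 CPM in IP, again without overlap (LFC 2.05, SE 0.12, adjusted p = 3.8e-10).

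*Socs2* had an LFC of 0.80 (SE 0.13, adjusted p = 0.00011), *Cish* of 0.71 (SE 0.14, adjusted p = 0.00054) and *Lif* of 0.87 (SE 0.23, adjusted p = 0.0053) between DTR IP and DTR input. *Il6st* had an LFC of -1.24, *Jak2* of -0.98, *Stat3* of -0.80 and *Jak1* of -0.62, with adjusted p-values from 3.5e-06 to 0.0002. None of these 7 genes had overlapping groups. *Osmr* was the exception in both genotypes: it stood at 3.55, 3.82, 5.21 and 6.03 CPM in DTR input and at 7.17, 5.06, 6.23 and 6.05 CPM in DTR IP, and the difference did not pass (LFC 0.44, adjusted p = 0.10). With the pool as a block it did pass (adjusted p = 0.041).

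**Figure D3:**
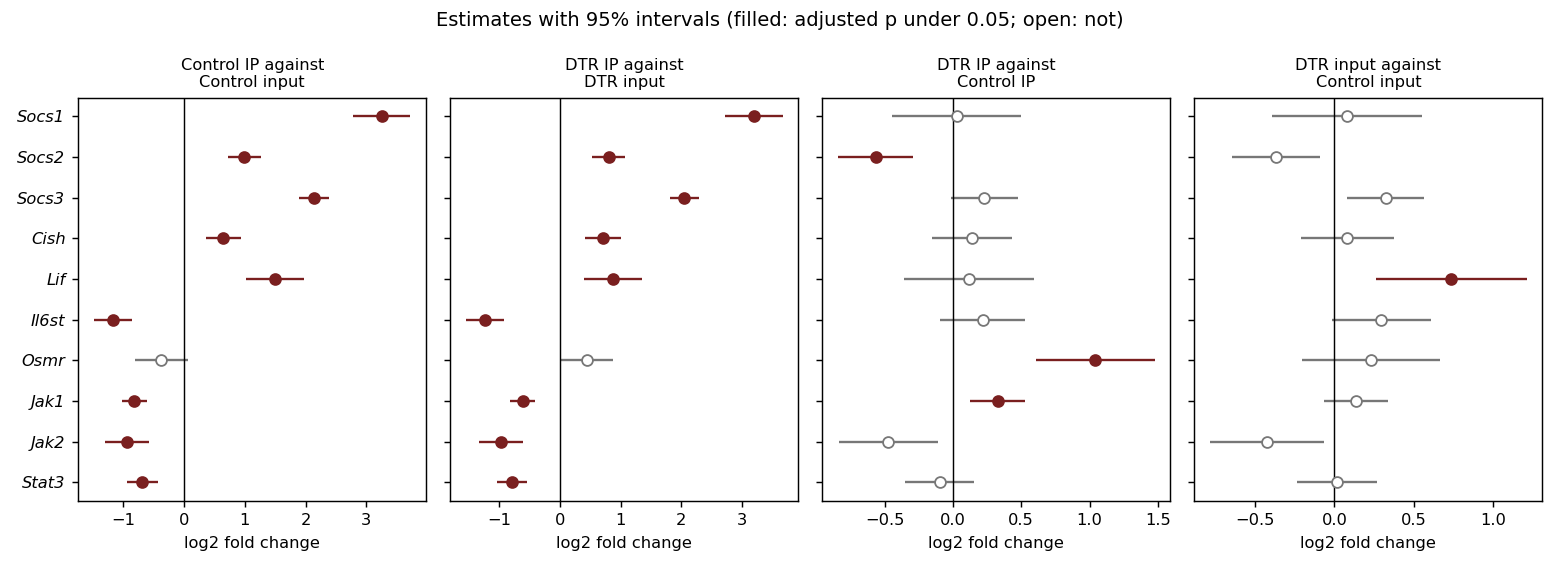
LFC of the 10 genes with 95% intervals in the 4 comparisons (filled points have an adjusted p under 0.05; the axes differ between panels). Both IP against input panels show the same 9 filled genes, and the damage panels show 3 in IP (*Osmr*, *Jak1*, *Socs2*) and 1 in input (*Lif*).

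The change after damage within the IP was smaller. Of the 10 genes, *Osmr* and *Jak1* rose and *Socs2* fell in DTR IP against control IP, that is 3 of 10 beside 15.7% of all tested genes (8.44% higher and 7.3% lower). *Osmr* alone passed the thresholds of the study, which ask for an absolute LFC of at least 1 and a separation above 1.5 and which 2.47% of all tested genes passed. Its LFC was under 1 in 4 of 28 alternatives, at 0.94 with a pseudocount of 1, 0.95 with the length and GC correction, with or without the replicate block, and 0.97 without control IP replicate 4, and its adjusted p passed in all 28.

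*Osmr* in control IP stood between 1.73 and 2.93 CPM and in DTR IP between 5.06 and 7.17 CPM. Every damaged library thus lay well above every control library, and the level was 2.06-fold higher (LFC 1.04, SE 0.21, adjusted p = 0.0016). *Socs2* stood at 425, 400, 438 and 449 CPM in control IP and at 240, 236, 358 and 297 CPM in DTR IP. It fell in all 4 libraries without overlap, by the least in replicate 3 (LFC -0.57, SE 0.13, adjusted p = 0.0057). *Jak1* stood at 126, 135, 107 and 108 CPM in control IP and at 154, 171, 139 and 133 CPM in DTR IP. Each DTR library exceeded the control library of its number, but the groups overlapped narrowly (LFC 0.33, SE 0.10, adjusted p = 0.025), and with edgeR (adjusted p = 0.12), DESeq2 (0.091), centring on the median (0.061) or the 2 groups alone (0.11) the call was lost. Leaving out control IP replicate 3 or 4 or DTR IP replicate 1 or 2 also ended the *Jak1* call (LFC between 0.26 and 0.32, adjusted p between 0.058 and 0.093).

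The remaining genes did not pass within the IP. *Jak2* stood at 32.1, 41.0, 26.9 and 21.9 CPM in DTR IP against 31.1 to 50.8 CPM in control IP (LFC -0.47, adjusted p = 0.071), and blocking on the replicate number let the difference pass (adjusted p = 0.033). For *Socs1* the LFC was 0.03 with a 95% interval from -0.45 to 0.50, and for *Socs3* 0.23 with an interval from -0.01 to 0.47. *Cish* (0.14), *Lif* (0.11), *Il6st* (0.22) and *Stat3* (-0.10) had adjusted p-values from 0.36 to 0.80. A difference that misses the threshold does not show that levels were equal.

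In input, DTR against control, only *Lif* was called, beside 12.4% of all tested genes (7.17% higher and 5.21% lower); none of the 10 passed the thresholds of the study, which 2.34% of all tested genes did. *Lif* stood at 0.739, 1.53, 1.46 and 2.10 CPM in DTR input against 0.357 to 0.931 CPM in control input. DTR replicate 1 lay below control replicate 4, so the groups overlapped, and each DTR library exceeded the control library of its number (LFC 0.74, SE 0.23, adjusted p = 0.039). The LFC was 1.41 with edgeR and 1.39 with DESeq2, on counts without a pseudocount. The *Lif* call was lost without a filter on low values (adjusted p = 0.10), with the 2 groups alone (0.078), and when control input replicate 1, 2 or 3 or DTR input replicate 2, 3 or 4 was left out (LFC between 0.58 and 0.71).

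*Socs2* stood at 160, 151, 196 and 167 CPM in DTR input against 194 to 258 CPM in control input (LFC -0.37, adjusted p = 0.079), and *Socs3* had an LFC of 0.32 (adjusted p = 0.080). Blocking on the replicate number, both passed, *Socs2* with an adjusted p of 0.019 and *Socs3* with 0.047. *Jak2* lay lower in all 4 DTR input libraries, at 42.5, 67.5, 58.9 and 64.8 CPM, than in any control input library, and did not pass (LFC -0.42, adjusted p = 0.13). With the block and the length and GC correction together it did (LFC -0.40, adjusted p = 0.042). *Il6st* stood at 238, 227, 194 and 344 CPM in DTR input (LFC 0.30, adjusted p = 0.24), where replicate 4 was highest by far. DTR input replicate 4 held the highest value of its group in 6 of the 10 genes (*Lif*, *Il6st*, *Osmr*, *Jak1*, *Stat3* and *Socs1*), and it also held the highest summed level of the macrophage markers, 277 CPM. Control IP replicate 2 likewise held the highest value of its group in 6 of the 10 genes, and DTR IP replicate 1 in 5.

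Whether the change after damage differed between IP and input was tested as an interaction, in which none of the 10 genes was called, as against 2 of all tested genes (0.0118%). At an unadjusted p under 0.05 there were 870 genes (5.12%), and *Osmr* was the only one of the 10 among them (difference of LFC 0.81, 95% interval 0.20 to 1.43, adjusted p = 0.68). edgeR called 0 genes and DESeq2 49, none of the 10 in either. A rise of *Osmr* that passes in the IP and does not pass in input is therefore not shown to differ between them. For *Lif* the estimate was -0.62 (SE 0.32) and for *Socs1* -0.05 (SE 0.32).

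Other members of the SOCS family were measured too, *Socs4* to *Socs7*. In control IP 6 of the 8 SOCS genes were higher than in input and none lower, with a median LFC of 1.21 beside 0.00 over all tested genes, of which 19.3% were higher. In DTR IP 7 of 8 were higher, beside 18.6% of all tested genes, with a median of 1.14 beside -0.03. *Socs6* stood at 69.6, 65.8, 70.8 and 87.8 CPM in control input and at 229, 240, 262 and 147 CPM in control IP (LFC 1.58, adjusted p = 2.5e-07). *Socs7* stood at 13.5 to 17.4 CPM in control input and at 33.8 to 50.1 CPM in control IP (LFC 1.43, adjusted p = 5.2e-07). *Socs4* passed in DTR IP (LFC 0.60, adjusted p = 0.040), but had an adjusted p of 0.051 in control IP. With the replicate block it passed in control IP too, so that 7 of the 8 were higher there. *Socs5* had an LFC of -0.01 in control IP and 0.04 in DTR IP and did not pass in either. After damage *Socs6* fell in the IP along with *Socs2* (LFC -0.52, adjusted p = 0.025). In input none of the 8 passed, beside 12.4% of all tested genes, although *Socs6* lay at 65.8 to 87.8 CPM in control and at 52.2 to 56.0 CPM in DTR without overlap, and with the replicate block *Socs3* rose and *Socs2* and *Socs6* fell. *Socs6* overlaps 3 other annotated genes.

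Of the elongin, cullin and RING genes whose products join the SOCS box, 1 of 5 (*Rnf7*) was higher in IP in each genotype, near the share of all tested genes (19.3% in control and 18.6% in DTR), and none passed after damage. The other inhibitors included *Pias4*, a SUMO ligase that acts on STAT proteins, which was higher in control IP at 78.6, 87.8, 89.6 and 98.6 CPM than in control input at 26.6, 34.7, 40.4 and 37.0 CPM (LFC 1.34, adjusted p = 1.0e-07), with an LFC of 1.10 in DTR IP. Of 8 phosphatase and PIAS genes, 2 were higher and 1 lower in control IP, where 39.9% of all tested genes were called in either direction. In DTR IP 3 (*Pias4*, *Ptpn1* and *Ptpn11*) were higher and 2 (*Pias2* and *Ptpn6*) lower, beside 39.2% of all tested genes. After damage 1 (*Ptpn6*) fell in the IP, where *Ptpn2* rose with the replicate block, and in input *Pias4* (LFC 0.54) and *Ptpn2* (LFC 0.61) rose. Without the block 7.3% of all tested genes fell and 8.44% rose in the IP, and 5.21% fell and 7.17% rose in input.

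Among the ligands of gp130 receptors, 4 of 9 passed the minimum. *Il6*, *Osm*, *Cntf*, *Clcf1* and *Il27* were under it and were not tested. *Il11*, a gp130 cytokine related to LIF, stood at 0.882, 0.873, 0.677 and 0.906 CPM in control input and at 2.78, 2.47, 1.43 and 1.77 CPM in DTR input. It rose with *Lif* in input, without overlap (LFC 0.78, adjusted p = 0.039), and with the replicate block it passed in the IP too.

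Of the 7 receptor genes, *Il6ra*, which encodes the interleukin 6 binding chain, was the only one higher in control IP, at 8.25, 7.54, 5.76 and 6.38 CPM against 3.65, 3.10, 2.61 and 3.44 CPM in input (LFC 1.08, adjusted p = 4.6e-05). Its LFC in DTR IP was 1.45. Among all tested genes 19.3% were higher in control IP and 18.6% in DTR IP. *Cntfr*, the receptor chain for ciliary neurotrophic factor, fell in DTR input from 42.7, 31.3, 20.2 and 23.8 CPM to 15.1, 14.7, 7.56 and 7.31 CPM (LFC -1.43, adjusted p = 0.0067). *Lifr*, the chain that pairs with gp130 for LIF, had an LFC of 0.36 in the IP (adjusted p = 0.085) and 0.39 in input (adjusted p = 0.076) after damage. With the replicate block 4 of 7 receptor genes rose and 1 fell in the IP after damage. Without it *Osmr* alone was called, where 8.44% of all tested genes rose and 7.3% fell. This receptor count is with the block alone, for which the number of all called genes is not given here. With the block and the length and GC correction together, 4388 of all genes were called, in place of 2674. As no share over all genes at the same setting stands beside it, the larger count with the block is not read as a result about receptors. The block also added *Lifr* in input after damage, and *Il11ra1* and *Osmr* in DTR IP against DTR input.

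Of the 4 JAK genes, *Tyk2* was higher in control IP than in input (LFC 0.59, adjusted p = 0.011), opposite to *Jak1* and *Jak2*, and *Jak3* was lower in DTR IP (LFC -0.92, adjusted p = 0.0079). *Stat5b* (LFC -0.57) and *Stat6* (LFC -0.76) lay below input in control IP as *Stat3* did, so that 3 of the 6 tested STAT genes were lower and none higher in the IP of either genotype. Of all tested genes 20.7% were lower and 19.3% higher in control IP, and 20.5% and 18.6% in DTR IP. *Stat4* was under the minimum. After damage *Stat3*, *Stat5b* and *Stat6* did not pass in IP or input.

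Of 22 other receptor genes that signal through JAKs, 18 were tested, 8 were higher and 5 lower in control IP, and 6 were higher and 6 lower in DTR IP. Over all tested genes 39.9% and 39.2% were called in either direction. *Ifngr2*, a chain of the interferon gamma receptor, had an LFC of 1.32 in control IP and 1.21 in DTR IP. *Epor* (1.23), *Il20rb* (1.37) and, in DTR IP, *Prlr* (1.04) were higher by at least 1, and *Lepr* (-1.12) and *Csf3r* (-1.13) were lower. *Csf3r* held 1 to 7 reads in the control IP libraries, so its LFC depended on the pseudocount. Over the alternatives it ranged from -0.72 with a pseudocount of 1 to -3.11 with DESeq2. *Csf3r* also passed the minimum of 0.5 CPM through control input alone, the group in which it was high against control IP. Its place among the 5 lower in control IP is therefore a description only. After damage *Epor*, which encodes the erythropoietin receptor, rose in the IP (LFC 0.63) and in input (LFC 0.95). It was the only one of the 18 to rise in the IP, where *Il10rb* (-0.48), *Il13ra1* (-0.44) and *Il4ra* (-0.78) fell, and in input *Csf2rb* rose too (0.69). Of all tested genes 8.44% rose and 7.3% fell in the IP after damage, and 7.17% rose and 5.21% fell in input.

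**Figure D4:**
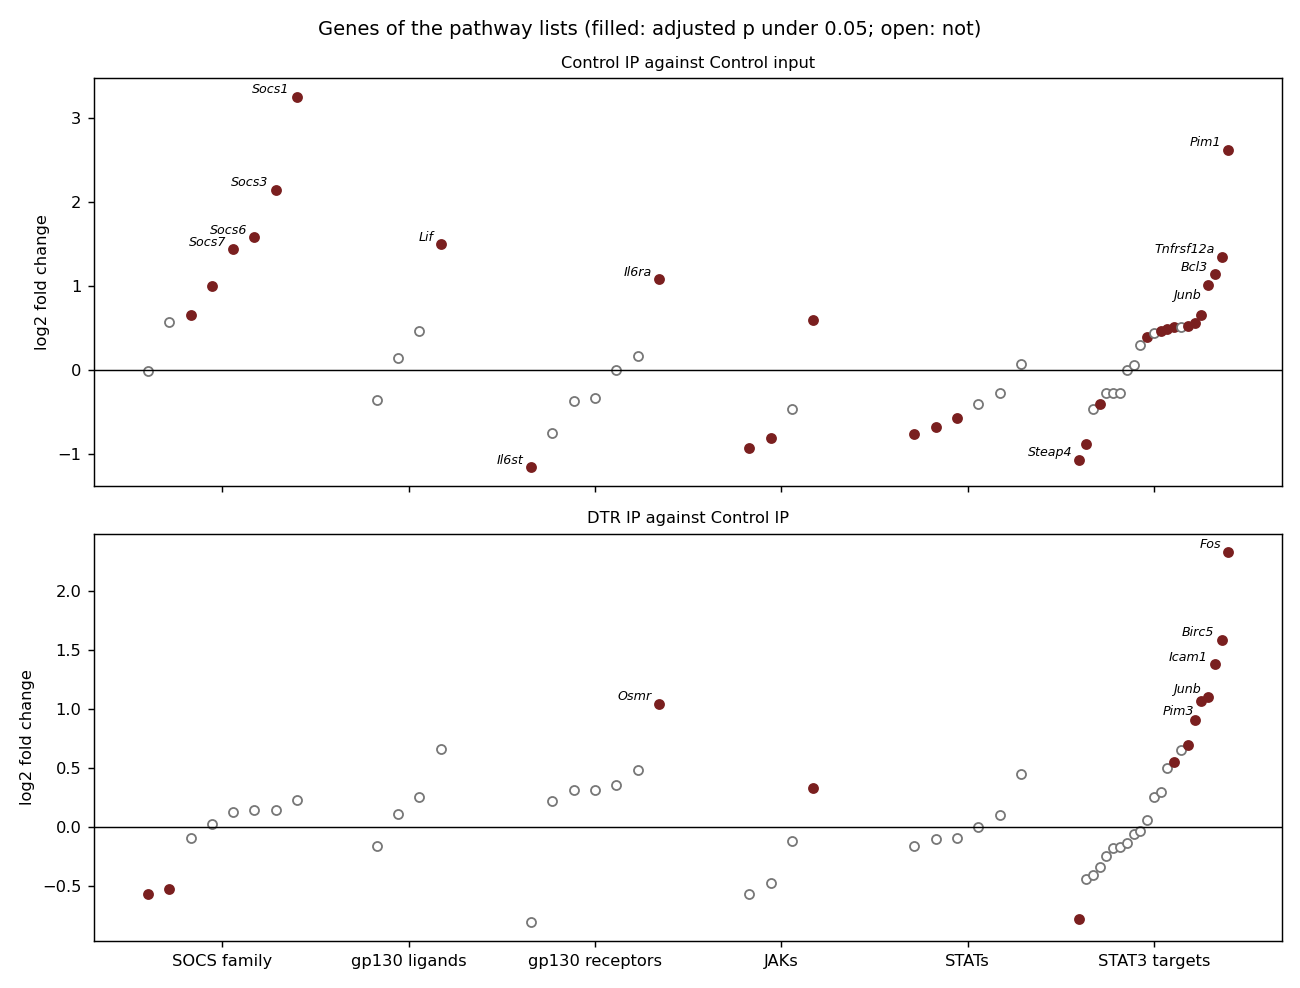
LFC of each tested gene of 6 lists for control IP against control input (top) and DTR IP against control IP (bottom); filled points have an adjusted p under 0.05, and called genes with an absolute LFC of at least 1 are named. In the top panel 6 of 8 SOCS genes are filled above 0, whereas the filled STAT genes lie below 0.

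Genes commonly listed as STAT3 targets were then counted. Of 23 tested, 8 rose and 1 (*Il4ra*) fell in DTR IP against control IP, with a median LFC of 0.25 beside 0.00 over all tested genes, of which 8.44% rose and 7.3% fell. With the replicate block 9 rose and 2 fell. In DTR input against control input 8 rose and none fell, with a median of 0.34 beside -0.02 over all tested genes, of which 7.17% rose and 5.21% fell, and with the replicate block 11 rose. These shares are without the block. For the block alone, the setting of the larger target counts, the share over all tested genes is not given here. Those counts are therefore not read as a result about the targets. With the block and the length and GC correction together, called genes went from 2674 to 4388 in the IP and from 2104 to 3464 in input. Both comparisons draw on the same pools.

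*Fos*, an immediate early gene that many other signals also induce, stood at 7.22, 4.67, 5.75 and 5.93 CPM in control input and at 89.0, 65.7, 23.2 and 44.4 CPM in DTR input. Every DTR library lay above every control library, with replicate 3 lowest (LFC 3.00, adjusted p = 3.1e-06). In the IP its LFC was 2.33 (adjusted p = 5.5e-05).

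*Icam1*, an adhesion molecule for leukocytes, stood at 18.7, 25.9, 18.2 and 20.9 CPM in control IP and at 50.3, 56.3, 61.4 and 56.3 CPM in DTR IP, without overlap (LFC 1.38, adjusted p = 4.6e-06), and had an LFC of 1.66 in input. *Junb* had an LFC of 1.10 in IP and 1.85 in input. The paper tested *Junb* by nCounter, a probe count of RNA, in these replicates and another, and its change after damage was not borne out. The kinase gene *Pim3* had an LFC of 1.07 in IP and 1.47 in input, and *Bcl3*, which encodes a cofactor of NF-kappaB, of 0.91 and 1.38. *Birc5*, which encodes survivin and is expressed in dividing cells, had an LFC of 1.59 in IP and 0.91 in input. *Serpina3n* rose in both, *Cebpd* in the IP and *Pim1* in input.

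*Pim1*, a kinase gene induced by STAT3 and STAT5, was higher in IP like *Socs1* and *Socs3*, at 23.1, 21.7, 13.2 and 8.01 CPM in control IP against 1.74, 3.38, 1.40 and 2.17 CPM in control input (LFC 2.62, adjusted p = 3.4e-07). Of the 23 STAT3 targets, 11 were higher and 3 lower in control IP, beside 19.3% and 20.7% of all tested genes, and 14 and 4 with the replicate block. They included *Tnfrsf12a* (LFC 1.35), *Bcl3* (1.14) and *Junb* (1.01) among the higher and *Steap4* (-1.08) among the lower. The STAT3 target *Gfap*, a marker of reactive glia, stood at 1.58 to 3.98 CPM in control input and at 2.32 to 2.95 CPM in DTR input (LFC -0.13, adjusted p = 0.83).

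**Figure D5:**
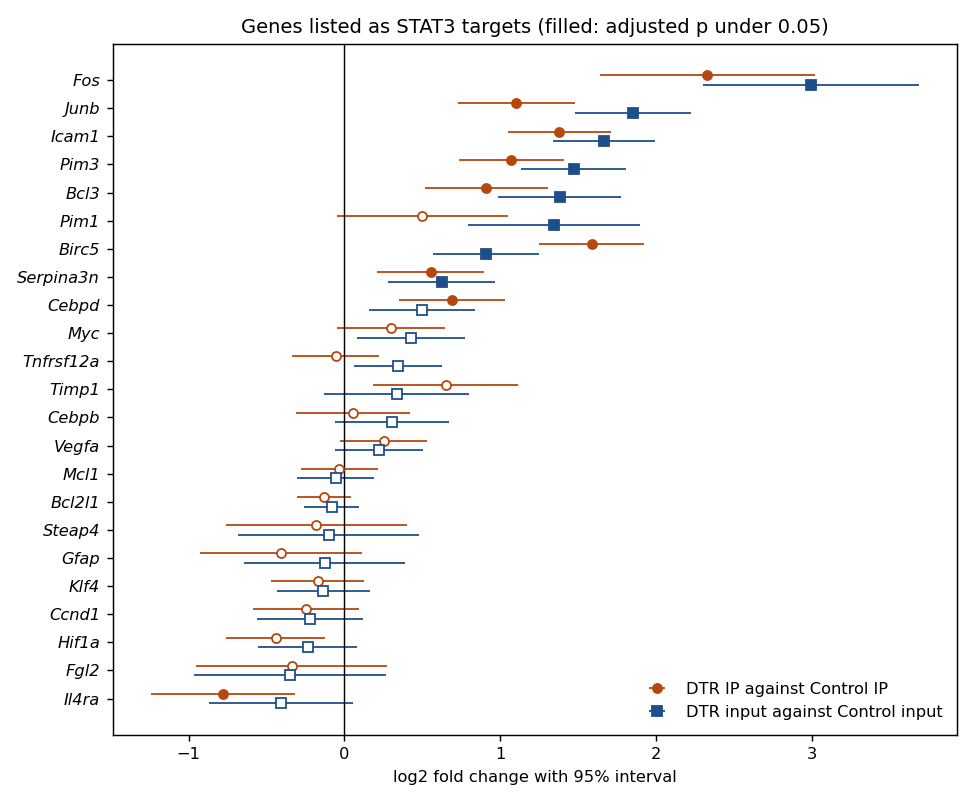
LFC after damage with 95% intervals of the 23 genes listed as STAT3 targets, in IP (circles) and in input (squares); filled points have an adjusted p under 0.05. *Fos*, *Junb*, *Icam1*, *Pim3*, *Bcl3*, *Birc5* and *Serpina3n* are filled in both.

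Some genes outside the STAT3 list were examined in the same way. *Gadd45g*, a STAT5 target that responds to stress, stood at 8.73, 11.6, 8.23 and 11.9 CPM in control IP and at 43.5, 30.4, 40.7 and 43.6 CPM in DTR IP (LFC 1.84, adjusted p = 1.8e-07), and had an LFC of 2.10 in input. *Cxcl10*, *Ciita* and *Irf1* rose in input. *Cxcl10*, a chemokine gene, had an LFC of 1.48 in input, and *Ciita*, which drives antigen presentation genes, of 1.19. Over the alternatives tried, these ranged from 1.13 to 2.50 for *Cxcl10* and from 0.83 to 2.26 for *Ciita*. *Irf1*, an interferon regulatory factor gene, was 1.67 higher in control IP and 1.31 higher in DTR IP on the log2 scale, and *Gbp2* was lower in DTR IP (LFC -1.04).

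Markers of other cells moved with damage. The summed level of the 9 macrophage markers was 127 ± 4.11 CPM (SD, n = 4) in control input and 229 ± 45.2 CPM in DTR input, with *C1qc* the most abundant after damage at 49.2 CPM. In the IP the sum was 26.1 ± 5.36 CPM in control and 61.7 ± 12.5 CPM in DTR, and 6 of the 9 rose in the IP and 6 in input. For these and the following marker counts, 8.44% of all tested genes rose and 7.3% fell in the IP. In input 7.17% rose and 5.21% fell. No macrophage marker was at 0 in any group. The 6 Schwann cell markers summed to 3663 ± 942 CPM in control input and 1669 ± 304 CPM in DTR input, and to 1075 ± 245 CPM and 712.6 ± 85.2 CPM in the IP. With the replicate block the Schwann cell markers that fell in the IP went from 2 to 5. Of the 6 otic mesenchyme markers, 4 rose in the IP and none in input, where *Tbx18* rose with the replicate block. The 6 endothelial markers summed to 287 ± 21.3 CPM in control input and 379 ± 41.9 CPM in DTR input, and to 102 ± 11.3 and 154 ± 8.29 CPM in the IP, with *Emcn* called higher in both and *Pecam1* in the IP. *Emcn* alone went from 172 to 265 CPM in input, where the median LFC of the 6 was -0.00073. Of the 6 hair cell markers, *Myo6* and *Otof* rose in the IP and none passed in input. The part of these cells in the rise of *Osmr*, *Lif*, *Il11* and the STAT target genes was not tested. While *Socs1* and *Socs3* were higher in IP than in input, the sums of the macrophage, endothelial, Schwann cell and hair cell markers were lower in IP in both genotypes. The mesenchyme markers were lower in control IP (5 of 6), whereas in DTR IP *Col3a1* was lower, *Pou3f4* higher and the other 4 did not pass.

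The 5 markers of *Lgr5*+ supporting cells summed to 471 ± 57.5 CPM in control IP and to 58.8 ± 7.73 CPM in DTR IP, and the 8 markers of GLAST-Cre+ cells and the ridge to 7511 ± 347 and 6584 ± 673 CPM. *Epyc*, the most abundant, made up the largest share of this last pair of sums. Its mean IP level was 3112 CPM in control mice and 4140 CPM in DTR mice. By contrast, 5 of the 8 (*Fabp7*, *Fgf10*, *Jag1*, *Sox2* and *Tecta*) fell in the IP and none rose, beside 7.3% and 8.44% of all tested genes. The median LFC of the 8 markers was -1.03. *Socs2* fell alongside these lists, whereas *Socs1* and *Socs3* did not pass in either direction. The part of cell loss in the fall of *Socs2* was not tested.

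The genes whose pattern over the 16 libraries was most like that of *Socs1* were *Ctdspl* (Pearson r = 0.992 of log2 values), *Atpaf1*, *Trp53rkb*, *Bet1l* and *Alkbh4*, the last with r = 0.988. For *Socs3* they included *Igf2* (r = 0.994), *H19* (0.993), *Rbms1* and *Zcchc3* (0.990). These points share libraries, and the values are dominated by the difference between IP and input. Mean *Igf2* was 326 CPM in the input and 3694 CPM in the IP of control mice, and 425 and 4915 CPM in those of DTR mice.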

How the data were processed

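The authors aligned reads to GRCm38 with HISAT2, counted them on coding regions by HTSeq and deposited the values as CPM (the labels name TopHat, and neither the annotation release nor the strand setting is given in the sources used here). Of 50316 genes listed, 2587 had no value. All values above 0 (100%) were whole multiples of 1 read within 0.05, so whole reads were recovered for edgeR (4.0.16) and DESeq2 (1.42.0). The fourth replicates carry another number in the deposited data than in their titles.

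The 16 libraries were quantile normalized and tested as log2(CPM + 0.5), the scale of every LFC, which understates changes of low genes. Group means were fitted with limma (3.58.1, R 4.3.3) allowing the variance to depend on the mean, and p-values were adjusted over 16994 genes by the Benjamini-Hochberg method. Printed CPM are as deposited. A conditional quantile normalization that the study ran before clustering was not applied. The procedure was tested on simulated data.

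IP and input of a number come from the same pool. Over 16 same-numbered pairs of libraries of compared groups, deviations from group means correlated at 0.288 to 0.559. The means of -0.230 to -0.087 for other numbers follow largely from the centring on group means, and are not separate support for a pairing. The number was treated as pairing libraries and used as a block in an alternative. That block was the 8 pools for IP against input and for the interaction, and the number for DTR against control. Whether pools were separate litters is not stated. The main fit treats the 16 libraries as independent, so its p-values for IP against input and for the interaction leave out the shared pool. Its p-values measure the spread between libraries within groups. With the pools as a block, those of IP against input measure how far the difference within a pool varies between pools.

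The 10 genes and the lists were chosen with earlier results of these data known. Genes named are the 10, every listed gene with an adjusted p under 0.05 and an absolute LFC of at least 1, ligands, receptors, JAK and STAT genes under the minimum, the most abundant and defining markers, and the 5 genes most like *Socs1* and *Socs3*. Some results are not reported here. Other genes of the lists named in the text were chosen after their values were seen. Positions came from GENCODE M21 (GRCm38).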

Additional observations from a re-analysis of the deposited data

How the results depend on the processing

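The alternatives were CPM without quantile normalization, centring on the median, a pseudocount of 0.1 or 1, a minimum of 2 CPM or none, the 2 groups alone, the replicate block with and without a length and GC correction, edgeR, DESeq2, each library left out in turn, and the length and GC correction alone, which was chosen after seeing the data. The LFC followed were those of the 10 genes and those of listed genes with an adjusted p under 0.05 and an absolute LFC of at least 1. Other LFC named in the text were not followed in this way. Of the values followed, 1083 kept their direction and side of the threshold outside the libraries left out, 11 newly passed, 6 no longer passed and 3 reversed. With a library left out, 1455 kept both, 6 newly passed, 10 no longer passed and 17 reversed. The calls of *Socs1*, *Socs2*, *Socs3*, *Cish*, *Lif*, *Il6st*, *Jak1*, *Jak2* and *Stat3* in IP against input held under all of them. Apart from the calls given beside the results, the replicate block changed no call of the 10 genes.

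In DTR input against control input the called members numbered 1, but 0 without the filter or with the 2 groups alone, 2 without quantile normalization and with DESeq2, and 3 with the replicate block, alone or with the length and GC correction. That block with the correction gave 3464 called genes there and 4388 in DTR IP against control IP, in place of 2104 and 2674. The interaction called 2 genes, but 40 with the replicate block, 72 with the block and the length and GC correction, 49 with DESeq2, 1 without quantile normalization or with the length and GC correction, and 0 with edgeR, without the filter or with a pseudocount of 0.1. The cause was not tested. Reversals outside the libraries left out were the interaction of *Jak2* without quantile normalization (0.0010), *Stat3* in DTR input with DESeq2 (-0.012) and *Socs1* in DTR IP centred on the median (-0.018), none of them called.

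With each library left out, the called members ranged from 0 to 2 in DTR input against control input, from 2 to 4 in DTR IP against control IP and from 9 to 10 in DTR IP against DTR input, and the interaction called 0 to 6 genes. Without control input replicate 1, 2 or 3, or DTR input replicate 2 or 4, no member was called in input, without DTR IP replicate 3, 2 were. The LFC of *Stat3* ranged from -0.17 to 0.017 in DTR IP against control IP, from -0.072 to 0.052 in DTR input against control input and from -0.18 to 0.0012 in the interaction. That of *Socs1* ranged from -0.18 to 0.28, from -0.081 to 0.25 and from -0.26 to 0.20 in the same 3 comparisons. In the interaction *Il6st* ranged from -0.18 to 0.093, *Jak2* from -0.20 to 0.083 and *Cish* from -0.042 to 0.12. None of these was called.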
